A study of Rattus norvegicus with 4 samples.

Results

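Occupancy by Hdac3 and by p300 was compared within differentiating rat oligodendrocytes, in the libraries titled Hdac3_d3 and p300_d3. These are 2 of the 4 chromatin immunoprecipitation sequencing (ChIP-seq) libraries of the series, chosen by their titles. The cells were primary oligodendrocyte precursor cells (OPCs) isolated from the cortex of Sprague Dawley pups at postnatal day 2. Differentiation was in Sato medium to which ciliary neurotrophic factor (10 ng/ml) and T3 (15 nM), a thyroid hormone, had been added. The titles give these cells the label d3, which the labels do not spell out further. The other libraries, used below for reference, were made with the same antibodies (Hdac3 from Abcam, p300 from Santa Cruz) from OPCs. These had been collected directly or kept in medium with the mitogens bFGF (20 ng/ml) and PDGF-AA (10 ng/ml), and the labels do not say which. Each antibody had 1 library at each stage, so no difference could be set against a spread between cultures. No input library was used here, so an excess of tags at a site could not be told apart from a bias common to all libraries. All 95% intervals cover counting error only. The labelled cell type could not be checked against marker genes, because gene positions of build rn4 were not used here. Regions are therefore given by rn4 coordinates without gene annotation.

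Hdac3 is a histone deacetylase that works as the catalytic part of NCoR and SMRT corepressor complexes, which are recruited to chromatin by transcription factors. p300 is a histone acetyltransferase and coactivator that acetylates histone H3 and other proteins, and its binding is widely used to map active enhancers. The enzymes have opposite activities on acetylated lysines, and the title of the series concerns their interaction in the choice between oligodendrocyte and astrocyte fates.

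Only reads on chromosomes 1 to 20 with a deposited score of at least 80 were kept, which left 6421863 for Hdac3 (75.1% of its autosomal reads) and 3564091 for p300 (78.0%). Hdac3 was thinned at random to the p300 total, so the average 1 kb bin held 1.39 tags of each protein. The OPC libraries, which were not thinned, held 3025850 Hdac3 and 2607428 p300 tags.

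Under the calling rule used here, enriched sites of either protein were few and narrow. A 1 kb bin was called a site where its tags were at least 3-fold over the highest of the genome mean and the means of the surrounding 10 kb and 50 kb, and the Poisson upper tail was below 1e-05. By this rule 298 Hdac3 sites and 173 p300 sites were found, from 0.0118% and 0.00704% of the 2558170 bins. Hdac3 sites held 0.138% of Hdac3 tags and p300 sites 0.0852% of p300 tags. A single bin made up 293 of the 298 Hdac3 sites and 166 of the 173 p300 sites. Neighbouring bins count towards the background of a bin, so the rule itself disfavours wide sites. The width of binding can therefore not be read from these counts, and the number of sites depended on the settings given below. Hdac3 sites held 10 to 177 tags with a median of 13, and p300 sites 10 to 108, also with a median of 13. The lowest fold of a called bin was 3.09 for Hdac3 and 3.38 for p300. Bins of at least 10 tags that were not called reached 5.88-fold for either protein.

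The excess of Hdac3 sites over p300 sites depended on the background. Against the genome mean alone 1016 Hdac3 and 1886 p300 sites were called, so the order turned. Bins with at least 10 tags numbered 1100 for Hdac3 and 2038 for p300, and 797 and 1858 of these were not called against their surroundings. Most p300 bins of that height therefore lay in stretches where p300 tags were also high around them or fell short of the local limits.

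Shared sites were a minority of each list. Of the 173 p300 sites 35 overlapped an Hdac3 site by at least 1 bp (20.2%, exact binomial interval 14.5 to 27.0%), and these were 11.7% of the 298 Hdac3 sites (8.32 to 16.0%). The share of p300 sites that were shared was 56.8% at a Poisson level of 1e-08 (21 of 37), 34.5% when the minimum score was lowered to 50 (98 of 284) and 6.89% against the genome mean alone (130 of 1886). Both proteins were called in 0.00149% of bins. At shared sites the centres of the tag clusters lay a median of 44 bp apart, and 28 of the 35 pairs lay within 100 bp. The largest separation was 691 bp.

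**Figure D1:**
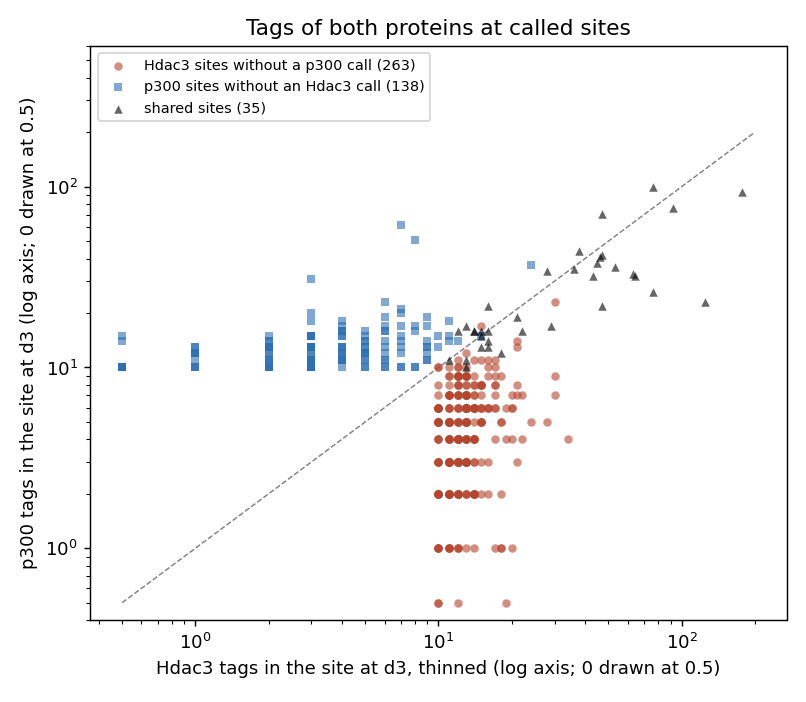
Tags of Hdac3 (x axis, thinned) and p300 (y axis) in each called site at d3, both on log axes with 0 drawn at 0.5 and equality as a dashed line. Shared sites (triangles) reach 177 Hdac3 tags and run along the line, while most sites of 1 protein hold between 10 and 20 tags of it.

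The 5 shared sites with the highest enrichment of both proteins were also enriched in OPCs. Chromosome 3 at 144001 to 145000 held 46 Hdac3 and 41 p300 tags at d3 (33.0-fold and 29.4-fold over background), with 58 and 22 in OPCs. Chromosome 5 at 2704001 to 2705000 held 53 Hdac3 and 36 p300 tags at d3, and 49 and 24 in OPCs. Chromosome 5 at 155405001 to 155406000 held 43 and 32 at d3, and 50 and 16 in OPCs. In these sites the ratio of Hdac3 to p300 tags at d3 was 1.12, 1.47 and 1.34, and each interval included 1. Chromosome 1 at 145514001 to 145515000 held 92 and 76 tags at d3 (ratio 1.21, 0.884 to 1.66), and 99 and 59 in OPCs. Chromosome 5 at 114470001 to 114471000 held 64 and 32 at d3 (ratio 2.00, 1.29 to 3.16), and 36 and 24 in OPCs. All 5 were called in each of the OPC libraries as well. Between 27.0% and 70.5% of the Hdac3 reads in these 5 sites at d3 reached a score of 80, so many reads there were left out.

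Shared sites differed from the others in how well their reads were placed. The deposited score was read as a mapping quality, and a site was termed well placed where at least 80% of all reads of the calling library in it reached a score of 80. This limit was set after the scores had been seen. Among Hdac3 sites 7 of the 35 shared ones were well placed (20%, 8.44 to 36.9%), against 207 of the 263 without a p300 call (78.7%, 73.3 to 83.5%). Among p300 sites it was 12 of 35 (34.3%, 19.1 to 52.2%) against 124 of 138 (89.9%, 83.6 to 94.3%). Of well-placed sites alone, 3.27% of Hdac3 sites and 8.82% of p300 sites were shared. Of the 35 shared sites, 23 were called in both OPC libraries, against 0 of the 263 separate Hdac3 sites (exact upper bound 1.39%) and 1 of the 138 separate p300 sites. In OPCs 0.0041% of bins were called for Hdac3 and 0.00477% for p300. Shared Hdac3 sites held a median of 28 Hdac3 and 22 p300 tags at d3, against 13 and 5 in separate Hdac3 sites. The OPC libraries held fewer tags than those of d3, so weaker sites were harder to call there. The part of tag number in this contrast was not tested. The part of poorly placed reads in the sharing was not tested.

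The 7 shared sites that were well placed for Hdac3 were well placed for p300 too. Chromosome 7 at 101749001 to 101751000 held 177 Hdac3 and 94 p300 tags at d3 (ratio 1.88, 1.46 to 2.44), and 115 and 48 in OPCs. Chromosome 19 at 12445001 to 12446000 held 76 and 26 at d3 (ratio 2.92, 1.85 to 4.76), and 50 and 13 in OPCs. Chromosome 17 at 4283001 to 4285000 held 45 and 38 at d3 (ratio 1.18, 0.752 to 1.87), and 48 and 23 in OPCs. These 3 were called in both OPC libraries, and at the first pair Hdac3 tags exceeded p300 tags beyond counting error. Chromosome 15 at 22308001 to 22309000 held 12 Hdac3 and 16 p300 tags at d3, and 5 and 4 in OPCs. Chromosome 4 at 30898001 to 30899000 held 13 and 11 at d3, and 6 and 1 in OPCs. Chromosome 13 at 75080001 to 75081000 held 14 and 16 at d3, and 5 and 7 in OPCs. These 3 were called in neither OPC library, and their ratios at d3 of 0.750, 1.18 and 0.875 had intervals that included 1. The remaining site, chromosome 6 at 22677001 to 22678000, held 15 and 13 at d3, with 7 and 10 in OPCs, where it was called for p300.

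Sites of 1 protein still carried tags of the other. Over all 298 Hdac3 sites there were 2420 p300 tags where 577 were expected from the surrounding 50 kb, a 4.19-fold excess (4.03 to 4.36). The p300 tags took no part in choosing these sites. At the 214 well-placed Hdac3 sites the excess of p300 was 2.90-fold (2.73 to 3.06). Over the 173 p300 sites Hdac3 was in 6.10-fold excess (5.84 to 6.37), and 4.18-fold (3.93 to 4.44) at the 136 well-placed ones. The excess of p300 at Hdac3 sites ran from 2.53-fold with the genome mean as background to 8.80-fold at a Poisson level of 1e-08. That of Hdac3 at p300 sites ran from 2.10-fold to 15.4-fold under the same settings.

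The excess rested in part on the shared sites but was not limited to them. At the 263 Hdac3 sites without a p300 call p300 was in 2.73-fold excess (2.58 to 2.88), and at the 138 p300 sites without an Hdac3 call Hdac3 was in 2.46-fold excess (2.27 to 2.66). Leaving sites out for a call of the other protein lowers these values by construction. At shared sites, chosen for both, the excess was 18.6-fold for Hdac3 and 14.1-fold for p300. The p300 tags were at least 3-fold over their background in 101 of the 298 Hdac3 sites (33.9%, 28.5 to 39.6%), beside 1.09% of all bins. Hdac3 tags were at least 3-fold over theirs in 64 of the 173 p300 sites (37.0%, 29.8 to 44.7%), beside 1.4% of all bins. These counts include the 35 shared sites, all of which passed. Among separate sites alone they were 66 of 263 Hdac3 sites (25.1%, 20.0 to 30.8%) and 29 of 138 p300 sites (21.01%, 14.5 to 28.8%). No p300 tag was found in 4 of the 298 Hdac3 sites, and no Hdac3 tag in 7 of the 173 p300 sites, while 38.1% and 36.5% of all bins had none. All bins include those where few reads can be placed, unlike called sites. The part of such bins in these differences was not tested.

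**Figure D2:**
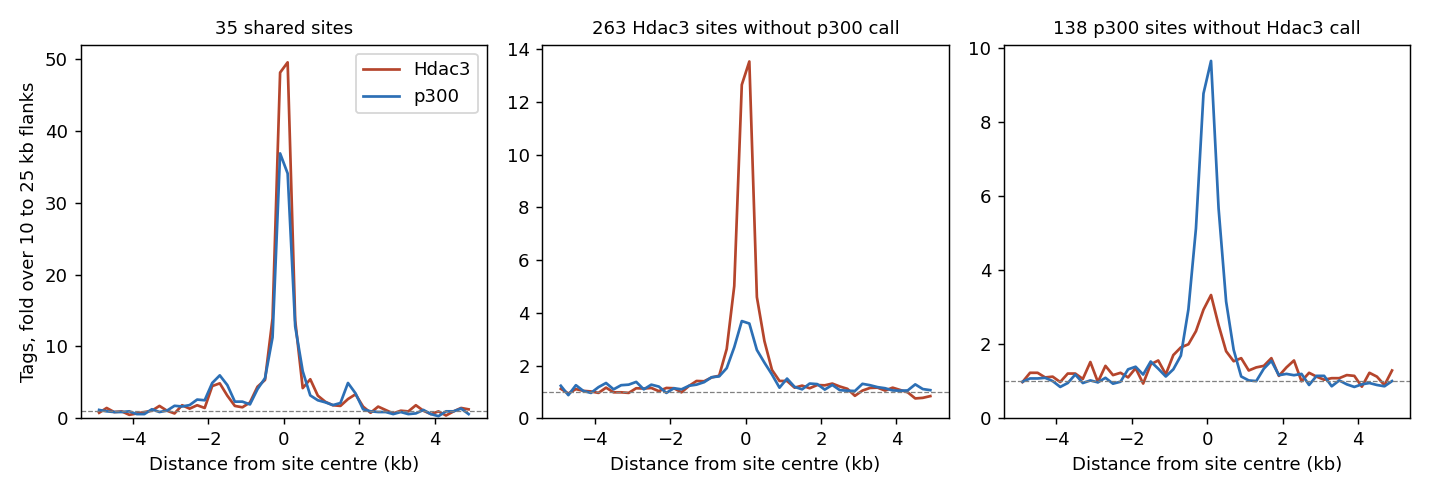
Tags of Hdac3 and p300 in 200 bp steps by distance from the site centre (x axis, kb), as fold over the mean at 10 to 25 kb (y axis, scaled separately in each panel), at shared sites, Hdac3 sites without a p300 call and p300 sites without an Hdac3 call. The protein that was not called forms a lower peak at the same centre in the middle and right panels.

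The excess of the other protein was centred on the sites. Around the 207 well-placed Hdac3 sites without a p300 call, p300 was 2.65-fold over the flanks at 10 to 25 kb (2.49 to 2.82) within 0.5 kb of the centre. It was 1.55-fold (1.42 to 1.68) from 0.5 to 1 kb, 1.19-fold (1.11 to 1.27) from 1 to 2 kb and 1.12-fold (1.08 to 1.16) from 2 to 5 kb. Around the 124 well-placed p300 sites without an Hdac3 call, Hdac3 was 2.45-fold (2.24 to 2.67), 1.66-fold (1.49 to 1.84), 1.29-fold (1.18 to 1.398) and 1.17-fold (1.11 to 1.23) over the same distances. For either protein the excess thus fell off within about 1 kb and its interval still lay above 1 at 2 to 5 kb. The called protein itself, around its own sites, was 1.04-fold (0.999 to 1.09) for Hdac3 and 1.01-fold (0.963 to 1.06) for p300 at 2 to 5 kb. The calling rule set each bin against the called protein in the surrounding 10 kb, which favours low values of that protein there. The widths of the 2 proteins therefore cannot be compared from these values.

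Reads set aside by the thinning gave a measure of Hdac3 that did not choose the sites, although it came from the same library. In these 2857772 reads Hdac3 was 6.56-fold (6.32 to 6.80) over its surroundings at all Hdac3 sites and 5.04-fold (4.79 to 5.29) at well-placed ones, against 9.14-fold and 7.96-fold in the reads used for calling. Scaled to equal depth, set-aside Hdac3 tags were 1.499 times the p300 tags over all Hdac3 sites (1.42 to 1.58) and 1.63 times over well-placed ones (1.51 to 1.76). No such set was at hand for p300.

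The offset between strands differed between the classes of site. In ChIP-seq the reads of the plus and minus strands lie on either side of the bound place, offset by about the fragment length. At well-placed Hdac3 sites without a p300 call the minus-strand ends lay a median of 119 bp downstream of the plus-strand ends for Hdac3, above 0 in 172 of 204 sites with at least 3 reads on each strand. At well-placed p300 sites without an Hdac3 call the offset for p300 was 120 bp, above 0 in 98 of 118 sites. At shared sites the medians were 35.4 bp for Hdac3 and 19.2 bp for p300, above 0 in 26 of 35 and 20 of 33 sites. The shift of 100 bp used in calling favours sites with an offset in the calling library. For the protein not used in calling, the offset was 92.4 bp for p300 at well-placed separate Hdac3 sites (34 of 47 sites above 0) and 20.0 bp for Hdac3 at well-placed separate p300 sites (33 of 62). Over all separate sites these medians were 59 bp (43 of 67) and 6.50 bp (38 of 73). Only part of the sites had 3 reads of the other protein on each strand. They were 47 of the 207 and 62 of the 124 well-placed sites, and 67 of the 263 and 73 of the 138 in all. The medians for the protein not used in calling thus describe sites with more of its tags, not the whole class.

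The Hdac3 sites of highest fold without a p300 call differed widely in p300. Chromosome 2 at 108040001 to 108041000 held 18 Hdac3 tags and 1 p300 tag at d3 (ratio 18, 2.84 to 750), and 1 of each in OPCs. Chromosome 3 at 100431001 to 100432000 held 20 and 1 at d3 (ratio 20, 3.20 to 829), and 2 of each in OPCs. Chromosome 19 at 10083001 to 10084000 held 30 and 7 at d3 (ratio 4.29, 1.84 to 11.6), and 7 and 4 in OPCs. These 3 were well placed and called in neither OPC library. Chromosome 4 at 152578001 to 152579000 held 30 and 9 at d3 (ratio 3.33, 1.54 to 7.98), and 35 and 8 in OPCs. Chromosome 1 at 164670001 to 164671000 held 22 and 7 at d3 (ratio 3.14, 1.30 to 8.71), and 12 and 4 in OPCs. These sites were called for Hdac3 in OPCs, and only 45.5% and 27.6% of their Hdac3 reads at d3 reached a score of 80.

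Separate p300 sites of highest fold showed the converse. Chromosome 1 at 162341001 to 162342000 held 13 p300 tags and 1 Hdac3 tag at d3 (ratio of Hdac3 to p300 0.0769, 0.00181 to 0.512), and 1 of each in OPCs. Chromosome 14 at 106010001 to 106011000 also held 13 and 1 at d3, with 0 p300 and 3 Hdac3 tags in OPCs. Chromosome 15 at 53708001 to 53709000 held 14 p300 tags and 0 Hdac3 tags in the thinned library, with 2 before thinning, and 3 and 6 in OPCs. These 3 were well placed, and the first had no further Hdac3 tag before thinning. Chromosome 18 at 24374001 to 24375000 held 61 p300 and 7 Hdac3 tags at d3 (ratio 0.115, 0.0443 to 0.251), and 24 and 8 in OPCs, but 28.4% of its p300 reads reached a score of 80. Chromosome 1 at 47899001 to 47900000 held 11 and 6 at d3 (ratio 0.545, 0.166 to 1.61), a difference within counting error, and 2 and 10 in OPCs, where it was called for Hdac3. In this site 57.9% of p300 reads at d3 reached a score of 80.

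The difference in tags was beyond counting error in only part of the separate sites. The interval of the ratio lay above 1 in 105 of the 263 separate Hdac3 sites (39.9%) and below 1 in 69 of the 138 separate p300 sites (50%). In the others the tags of the proteins were not distinguishable from equal numbers at this depth. Over the Hdac3 sites that were shared, 6 of 35 had more Hdac3 and 1 had more p300 by this measure. These counts describe the sites, since a call of 1 protein and not of the other itself favours an unequal ratio.

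The separate sites of d3 were also enriched for both proteins in OPCs. At the 207 well-placed Hdac3 sites without a p300 call, Hdac3 tags of OPCs were 2.11-fold over their surroundings (1.95 to 2.28) and p300 tags of OPCs 2.72-fold (2.53 to 2.92), beside 2.50-fold (2.34 to 2.66) for p300 at d3. Over all 263 separate Hdac3 sites the OPC values were 2.92-fold (2.75 to 3.09) for Hdac3 and 2.89-fold (2.71 to 3.07) for p300, so the higher value of p300 held for the well-placed sites and not for the whole class. At the 124 well-placed p300 sites without an Hdac3 call, p300 tags of OPCs were 2.35-fold (2.13 to 2.58) and Hdac3 tags 1.72-fold (1.54 to 1.92), beside 2.36-fold (2.17 to 2.57) for Hdac3 at d3. The call in OPCs was absent for both proteins at 241 of the 263 separate Hdac3 sites and at 129 of the 138 separate p300 sites. The same protein was called in OPCs at 17 of the 263 (6.46%) and at 7 of the 138 (5.07%). Of all bins, 0.0041% were called for Hdac3 and 0.00477% for p300 in OPCs. The OPC libraries held fewer tags, so an absent call there does not show that binding was absent.

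The distance from each separate site to the nearest site of the other protein, shared sites included, was set beside that of all bins. A p300 site lay within 100 kb of 12 of the 263 separate Hdac3 sites (4.56%, 2.38 to 7.83%), against 1.29% of all bins. An Hdac3 site lay within 100 kb of 10 of the 138 separate p300 sites (7.25%, 3.53 to 12.9%), against 2.22% of all bins. Within 1000 kb the shares were 17.5% (13.1 to 22.6%) against 11.6% for Hdac3 sites and 25.4% (18.3 to 33.5%) against 19.7% for p300 sites, and the latter interval included the share of all bins. So did the interval at 500 kb for p300 sites (14.5%, 9.08 to 21.5%, against 10.5%) and that at 50 kb for Hdac3 sites (1.52%, 0.416 to 3.85%, against 0.651%). The bins at large include stretches with few placed reads, where no site could be called, and their part in the difference was not tested.

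Beyond the narrow sites, tags of the proteins were set against each other over wide windows. The correlation of Hdac3 and p300 tags, over bins with any tag, was 0.147 at 1 kb, 0.560 at 5 kb, 0.697 at 10 kb, 0.853 at 50 kb and 0.905 at 500 kb (Pearson, as a description). Counting error lowers it in small bins, and the share of a window in which reads can be placed is common to both libraries. In the 4872 windows of 500 kb with at least 500 tags together, p300 tags varied more than Hdac3 tags. Their coefficient of variation was 39.5% for p300 and 26.6% for Hdac3, beside 3.71% and 3.72% from counting alone. In OPCs the values in the same windows were 37.3% and 25.6%. The tags of the same antibody at the different stages were more alike (r = 0.957 for Hdac3 and 0.961 for p300) than those of different antibodies at d3 (r = 0.890).

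The ratio of Hdac3 to p300 accordingly varied beyond counting error over broad stretches. Its log2 value had a standard deviation of 0.27 over the 500 kb windows, where counting error would give 0.081, and ran from -1.001 to 0.75. The 95% interval of the ratio lay above 1 in 1990 windows (40.8%) and below 1 in 1201 (24.7%). In the 46072 windows of 50 kb with at least 50 tags together, the standard deviation was 0.37 against 0.25 from counting, and the intervals lay above 1 in 9.19% and below 1 in 9.24%. The ratio of a 50 kb window was correlated with that of the adjacent window (r = 0.507 over 44053 pairs), with the window 500 kb away (0.373), 1000 kb away (0.291) and 5000 kb away (0.103).

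**Figure D3:**
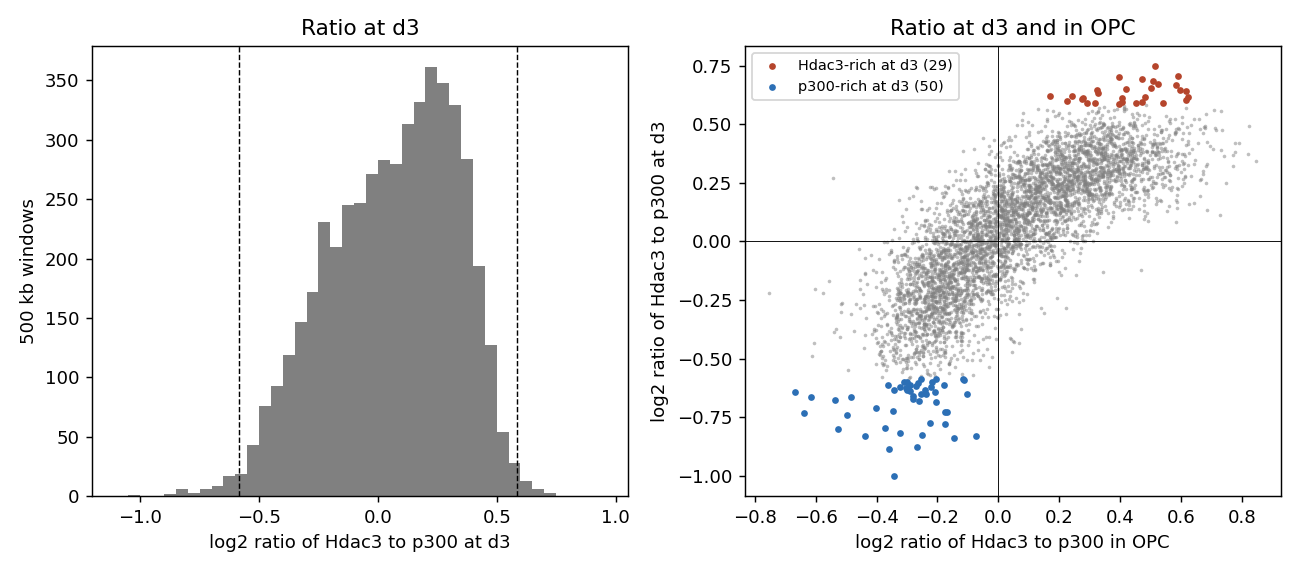
Left, number of 500 kb windows (y axis) by log2 ratio of Hdac3 to p300 tags at d3 (x axis), with dashed lines at 1.5-fold. Right, the same ratio at d3 (y axis) against that in OPCs (x axis) for each of the 4872 windows, where all 29 Hdac3-rich and all 50 p300-rich windows of d3 lie on the same side of 0 in OPCs.

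Past a ratio of 1.5, 29 windows of 500 kb were Hdac3-rich (0.595% of 4872) and 50 were p300-rich (1.03%). The first count fell to 14 with windows moved by 0.5 of their width and also to 14 when the minimum score was lowered to 50, while the second stayed between 41 and 57 under all settings tried. Hdac3-rich windows held a median of 497 Hdac3 and 317 p300 tags, and p300-rich ones 853.5 and 1382.5, beside 752 and 711 over all windows. The typical Hdac3-rich window was thus poor in tags of both proteins and the typical p300-rich window rich in both. All 29 and all 50 had a ratio on the same side of 1 in OPCs, as did 55.2% and 44.8% of all windows. The limit of 1.5 was passed in OPCs by 6 of the 29 (20.7%) and 3 of the 50 (6%), beside 1.87% and 0.144% of all windows. Summed over the windows, the ratio in the Hdac3-rich set was 1.55 at d3 (1.51 to 1.60) and 1.34 in OPCs (1.31 to 1.38). In the p300-rich set it was 0.616 at d3 (0.608 to 0.623) and 0.808 in OPCs (0.797 to 0.819). Both sets were chosen at d3, which favours a ratio nearer 1 in OPCs. Over all 4872 windows the log2 ratios at d3 and in OPCs had r = 0.793 and rho = 0.825, from 4 different libraries that share the genome's base composition and placed length.

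At 50 kb a ratio of at least 2 was used. By it 347 windows were Hdac3-rich (0.753% of 46072) and 121 p300-rich (0.263%). Without thinning, which lowers the counting error of Hdac3, there were 217 and 85. In OPCs 290 of the 347 (83.6%) and 104 of the 121 (86.0%) lay on the same side of 1, beside 53.8% and 46.2% of all windows. The limit of 2 was passed in OPCs by 20 of the 347 (5.76%) and 3 of the 121 (2.48%), beside 1.41% and 0.0803% of all windows.

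The windows at the ends of the distribution were as follows. The highest 50 kb ratio was on chromosome 7 at 42700001 to 42750000, with 42 Hdac3 and 9 p300 tags (4.67, 2.24 to 10.9) and a ratio of 1.67 in OPCs (0.864 to 3.34). Chromosome 18 at 10500001 to 10550000 held 41 and 12 tags (3.42), and chromosome 2 at 207450001 to 207500000 held 39 and 12 (3.25). These windows held few tags in all, and their OPC intervals included 1. Chromosome 2 at 108000001 to 108050000 held 67 and 21 tags (3.19, 1.93 to 5.49), and 26.9% of its Hdac3 tags lay in 1 bin, the separate Hdac3 site given above. Chromosome 14 at 75850001 to 75900000 held 68 and 23 (2.96, 1.82 to 4.97), with a ratio of 1.94 in OPCs (1.22 to 3.14), the only one of the 5 whose OPC interval excluded 1.

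Most of the lowest 50 kb ratios were in windows dense with p300 tags. Chromosome 10 at 47200001 to 47250000 held 83 Hdac3 and 243 p300 tags (0.342, 0.263 to 0.440). Chromosome 10 at 102650001 to 102700000 held 105 and 305 (0.344, 0.273 to 0.431). Chromosome 3 at 147050001 to 147100000 held 106 and 303 (0.350, 0.278 to 0.438). Chromosome 3 at 161400001 to 161450000 held 119 and 333 (0.357, 0.287 to 0.442). In these 4 windows no 1 kb bin held more than 5.11% of the p300 tags, so the excess was spread over the window. In OPCs their ratios were 0.937, 0.676, 0.755 and 0.805, and the interval excluded 1 in the window at 102650001 alone. The lowest ratio, on chromosome 20 at 27100001 to 27150000, rested on 13 and 43 tags (0.302, 0.149 to 0.573).

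Adjacent 500 kb windows joined into 8 p300-rich runs of at least 2 windows, 10.5 Mb in all, and 2 Hdac3-rich runs of 1 Mb each. The longest p300-rich run was on chromosome 7 at 9500001 to 11500000, with 3161 Hdac3 and 5322 p300 tags (ratio 0.594, 0.568 to 0.621). The ratio was below 1 in each of its 40 windows of 50 kb, between 0.421 and 0.812. In the 3 Mb on either side it was 1.15 (1.01 to 1.29, 12 windows) and 0.957 (0.906 to 1.01, 41 windows). In OPCs the run had a ratio of 0.885 (0.844 to 0.928), nearer 1 than at d3. The run with the next most tags lay on chromosome 13 at 45000001 to 46500000, where the ratio was 0.592 (0.566 to 0.619) and 0.806 in OPCs. It was followed by chromosome 1 at 95000001 to 96500000, where the ratio was 0.619 (0.589 to 0.651) and 0.799 in OPCs. All of the 30 windows of 50 kb in each of these runs were below 1. Runs were chosen by the same d3 tags, which favours low ratios in their 50 kb windows at d3 and values nearer 1 in OPCs. In these 3 runs no 1 kb bin held more than 0.4% of the p300 tags, so the excess of p300 was spread along them. The 8 runs contained 1 p300 site in all, in the run on chromosome 7. There was 1 Hdac3 site in each of the runs on chromosomes 7, 13 and 16 and on chromosome 1 at 208000001 to 209500000. More Hdac3 than p300 sites thus lay in the p300-rich runs. The remaining runs held no site, beside calls for p300 and Hdac3 in 0.00704% and 0.0118% of all bins. With calls so rare, and made against the surrounding tags, these counts do not show how the excess was spread.

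**Figure D4:**
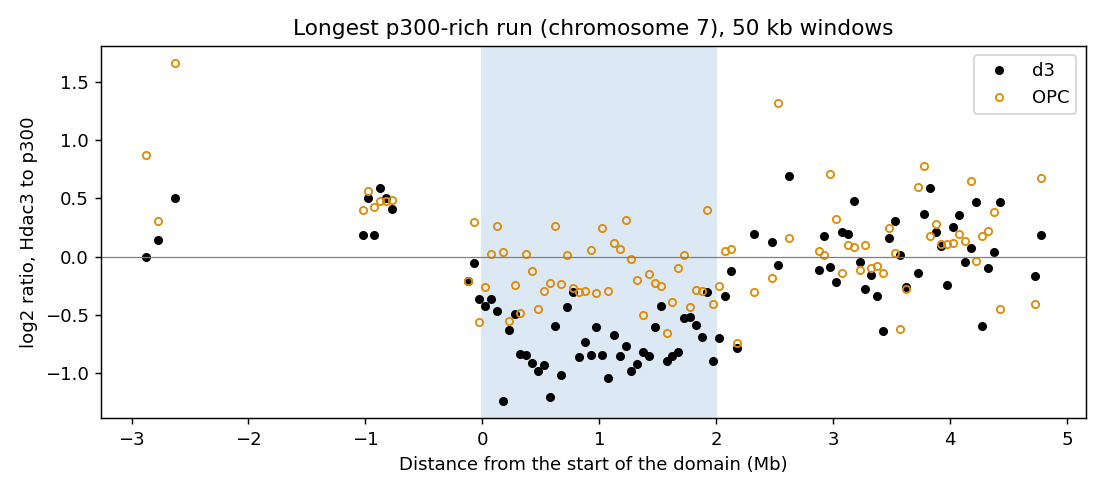
Log2 ratio of Hdac3 to p300 tags (y axis) in 50 kb windows by distance from the start of the longest p300-rich run (x axis, Mb), at d3 (filled) and in OPCs (open), with the run shaded. All 40 windows of the run lie below 0 at d3, while the OPC values scatter on both sides of 0. The run was chosen by its d3 tags.

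The Hdac3-rich runs were both on chromosome 11. At 23000001 to 24000000 there were 1110 Hdac3 and 693 p300 tags (ratio 1.60, 1.46 to 1.76), and in OPCs the ratio was 1.46 (1.31 to 1.63). At 54500001 to 55500000 there were 967 and 637 (1.52, 1.37 to 1.68), and in OPCs 1.26 (1.13 to 1.41). The ratio was above 1 in all 20 windows of 50 kb of the first and in all 15 tested windows of the second. The choice of the runs by the same d3 tags favours such counts. Neither contained a site of either protein, which says little where 0.0118% of all bins were called for Hdac3 and 0.00704% for p300. The single highest 500 kb window was on chromosome 2 at 108000001 to 108500000 (541 and 322 tags, 1.68, 1.46 to 1.93, and 1.43 in OPCs). The lowest was on chromosome 3 at 147000001 to 147500000 (623 and 1247 tags, 0.4996, 0.453 to 0.550, and 0.788 in OPCs).

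**Figure D5:**
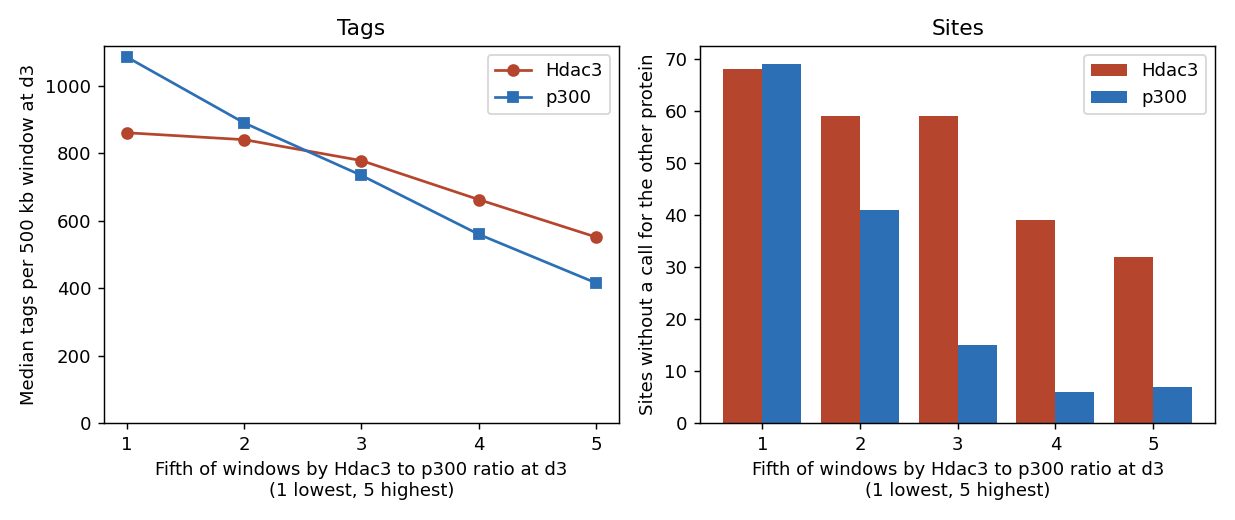
Median tags per 500 kb window (left) and number of sites without a call of the other protein (right) in quintiles of the 4872 windows, from the lowest to the highest ratio of Hdac3 to p300 at d3 (x axis). From the first to the last quintile p300 tags fall from 1085 to 416 and Hdac3 tags from 861 to 552. Separate p300 sites fall from 69 to 7 and separate Hdac3 sites from 68 to 32. The quintiles used the same d3 tags that called the sites.

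Sites of p300 were gathered in the p300-rich end of the genome more than those of Hdac3. The 500 kb windows were split into quintiles by their ratio in OPCs, which did not use the d3 tags. Of the 138 separate p300 sites 67 lay in the quintile with the lowest ratio (48.6%, 39.96 to 57.2%) and 6 in the quintile with the highest (4.35%, 1.61 to 9.22%). Of the 263 separate Hdac3 sites 80 lay in the lowest (30.4%, 24.9 to 36.4%) and 31 in the highest (11.8%, 8.15 to 16.3%). By the ratio at d3 the shares in the lowest quintile were 50% for p300 and 25.9% for Hdac3. The split at d3 used the same tags that called the sites, which favours p300 sites in the lowest quintile. Windows with a low ratio at d3 held more tags of both proteins, a median of 1085 p300 and 861 Hdac3 tags in the lowest quintile against 416 and 552 in the highest, and a site is easier to call where tags are dense. The part of tag density in these shares was not tested.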

How the data were processed

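The deposited files list aligned reads in rn4 coordinates with a strand and a score from 8 to 100 for each read. The score was deposited by the authors with no account of its scale, with its aligner and filters not given in the sources used here. In the submitters' processing notes stand the build rn4 and the peak caller MACS 1.4.0, and not what each was used for. No 5' end occurred more than 1 time per strand in a library, so the tags of a narrow site are bounded by its width. Reads of score 80 or more on chromosomes 1 to 20 were shifted 100 bp downstream along their strand and counted with Python 3.11.15, numpy 2.4.6 and scipy 1.17.1, after random thinning of Hdac3 (seed 1). Ratios have exact conditional binomial intervals, sums exact Poisson intervals and shares Clopper-Pearson intervals. Log2 ratios used a pseudocount of 0.5. Strand offsets used read ends without the shift, with Hdac3 before thinning. Ratios in OPCs were scaled by tag totals. Site calling was also run on simulated Poisson counts with known sites. The outcome is not given here, and such counts do not give the rate of false calls in the real libraries.

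Named regions were taken by rule: the 5 shared sites with the highest lower fold, the 5 separate sites of each protein with the highest fold, the 5 highest and 5 lowest 50 kb windows, the longest runs of 500 kb windows and the single highest and lowest one. Well-placed shared sites were added after their values were seen. Members and lists were chosen with earlier results of these data known. Gene lists were left out, since the reference tables used a different assembly from the reads. Alternatives were the minimum score, thinning, Poisson level, bin size, background, site overlap and window position.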

Additional observations from a re-analysis of the deposited data

Results flagged for a closer look

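The order of the site counts was opposite at the stages when all 4 libraries were thinned to 2607428 tags. At d3 there were 178 Hdac3 and 99 p300 sites, and in OPCs 86 Hdac3 and 120 p300 sites. With 1 library per group the difference was not tested.

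Chromosome 18 had a ratio of Hdac3 to p300 tags of 1.04 at d3 (1.03 to 1.05) and of 0.991 in OPCs (0.982 to 0.9997), on opposite sides of 1. This difference was not tested either.

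Reads outside the autosomes took no part in the comparison. On chromosome X the ratio of Hdac3 to p300, scaled by autosomal totals, was 1.41 at d3 (1.398 to 1.42, from 222280 and 87539 tags before thinning) and 1.09 in OPCs (1.08 to 1.10). On the mitochondrial chromosome it was 0.474 at d3 (0.462 to 0.485) and 0.986 in OPCs (0.966 to 1.01).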

How the results depend on the processing

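Site counts moved most with the setting. Hdac3 sites numbered 474 at a minimum score of 50, 824 without thinning, 68 at a Poisson level of 1e-08 and 1016 with the genome mean as background. For p300 they were 284, 173, 37 and 1886. Shared sites numbered 98, 44, 21 and 130, and 12 of those called for p300 were well placed. Settings chosen after seeing the data were tags not moved and well-placed sites alone. The excess of p300 at Hdac3 sites was 4.93-fold (score of at least 50), 3.93 (score of 100), 3.18 (no thinning), 8.80 (1e-08), 5.02 (500 bp bins), 2.53 (genome mean), 4.48 (tags not moved) and 2.90 (well-placed sites). That of Hdac3 at p300 sites was 7.25-fold (score of at least 50), 15.4 (1e-08), 9.74 (500 bp bins), 2.10 (genome mean), 6.64 (tags not moved) and 4.18 (well-placed sites). Each of these lay above 1. Windows of 500 kb past 1.5-fold for Hdac3 numbered 14 with a score of at least 50 and 14 when moved by 0.5 of their width, and 50 kb windows past 2-fold for Hdac3 numbered 217 without thinning. The cause was not tested. The correlation of the ratio between stages stayed between 0.786 and 0.798. No paired analysis was possible because each group held 1 library. A site needed at least 10 tags, so weaker binding was not detectable at this depth.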

Other observations

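Whole chromosomes differed little in the ratio of Hdac3 to p300 tags at d3. Of the 20 autosomes 10 had an interval above 1 and 8 an interval below 1, and 18 lay on the same side of 1 in OPCs. The lowest ratios were on chromosome 12 (0.893, 0.883 to 0.903) and chromosome 10 (0.901, 0.896 to 0.907), with 0.956 and 0.930 in OPCs. The highest were on chromosome 2 (1.08, 1.07 to 1.08) and chromosome 11 (1.06, 1.05 to 1.07), with 1.06 and 1.05 in OPCs. Chromosome 10 held 18 p300 and 9 Hdac3 sites, and chromosome 2 held 14 and 35. Chromosome 12 held 3 and 5, and chromosome 11 held 8 and 6, so there the order of the sites was opposite to that of the tags. All autosomes together held 173 p300 and 298 Hdac3 sites.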
